A study of Mus musculus with 12 samples.

Results

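The miR-29 family is a small group of microRNAs best known for holding back the genes of the extracellular matrix. Its mature forms in the deposited table were taken by name, which gave 5 members, mmu-miR-29a-3p, mmu-miR-29b-3p, mmu-miR-29c-3p, mmu-miR-29a-5p and mmu-miR-29c-5p, of 1900 mature miRNAs listed. The species prefix mmu is left out from here on. All 5 had reads in at least 5 of 12 libraries and so were among the 482 miRNAs that could be tested. The libraries were made from small RNA of whole gastrocnemius, the large calf muscle, of male C57BL/6 mice with no further treatment. The study set 6 young mice of 6 months against 6 aged mice of 24 months, to find which miRNAs differ between young and aged skeletal muscle. As far as its methods say, each library came from the muscle of 1 mouse.

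Each miR-29 hairpin is cut into a duplex of a 3p and a 5p strand, of which the 3p strand is the usual guide and the 5p strand the usual passenger. The guides pair through their seed with messages for fibrillar and basement membrane collagens, elastin, fibrillins and other matrix proteins, and lower their output. In muscle and other tissues, TGF-beta signalling and the factors NF-kappaB and YY1 are known to restrain the miR-29 genes, and miR-29 is also known to act during myogenic differentiation, where YY1 and Rybp are among its targets. Because the RNA came from whole muscle, fewer cells of a type and less RNA per cell cannot be told apart in any value below.

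The mature sequences (RefSeq, GRCm38.p6) are printed because both the grouping of the guides and a limit on miR-29b-3p rest on them, and capitals mark the seed, bases 2 to 8 from the 5′ end.
miR-29a-3p: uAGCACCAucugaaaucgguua
miR-29b-3p: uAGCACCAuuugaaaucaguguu
miR-29c-3p: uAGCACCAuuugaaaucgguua
miR-29a-5p: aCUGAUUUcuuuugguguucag
miR-29c-5p: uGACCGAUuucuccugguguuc
The 3 guides had 1 seed in common, and among the 1603 miRNAs of the table with a RefSeq sequence no other carried it. Counted from the 5′ end, miR-29a-3p and miR-29c-3p were identical at 21 of 22 positions and differed by C10U. From miR-29a-3p to miR-29b-3p, which is 1 base longer, the changes were C10U, G18A, U21G and A22U, and from miR-29b-3p to miR-29c-3p they were A18G, G21U and U22A. The passengers did not share a seed. With miR-29c-5p starting 2 bases earlier, however, 17 of 20 overlapping positions of miR-29a-5p and miR-29c-5p were the same.

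The family comes from 2 pairs of hairpins (GRCm38/mm10). Mir29a (chr6:31062660-31062747, minus strand) and Mir29b-1 (chr6:31063023-31063093, minus strand) lie 275 bases apart, and the 5′ end of Mir29b-1 overlaps the 3′ end of the lincRNA gene Gm27019 on the same strand by 2 bases. Mir29b-2 (chr1:195037040-195037120, plus strand) and Mir29c (chr1:195037547-195037634, plus strand) lie 426 bases apart. Both sit within an exon of the non-coding gene A330023F24Rik on the same strand and, on the opposite strand, within the annotated span of an exon of Cd46, which encodes a complement regulator. Mir29b-1 and Mir29b-2 give the identical miR-29b-3p, so its reads cannot be traced to either chromosome.

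Levels were deposited on a log2 scale of FPKM, reads scaled by the length of the RNA and by the mapped reads of the library. Different miRNAs and arms are set side by side on that scale or in reads only. Whether equal values stand for equal amounts of different miRNAs was not tested. By mean level over 12 libraries, miR-29a-3p ranked 32, miR-29c-3p 62, miR-29b-3p 123, miR-29c-5p 160 and miR-29a-5p 208 among the 1900 miRNAs. The level of miR-29a-3p was above that of miR-29c-3p in 12 of 12 libraries, by a median of 3.69 times, and above that of miR-29b-3p by a median of 27.5 times, with ranges that did not meet. miR-29b-3p and miR-29c-5p were neighbours whose ranges overlapped, although the former was higher in 10 of 12 libraries. The ranges of miR-29c-5p and miR-29a-5p also overlapped, with miR-29c-5p higher in 12 of 12 libraries. Together the 3 guides made up 0.214% ± 0.076 (SD, n = 6) of the summed miRNA FPKM in young muscle and 0.244% ± 0.039 (SD, n = 6) in aged muscle.

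**Figure D1:**
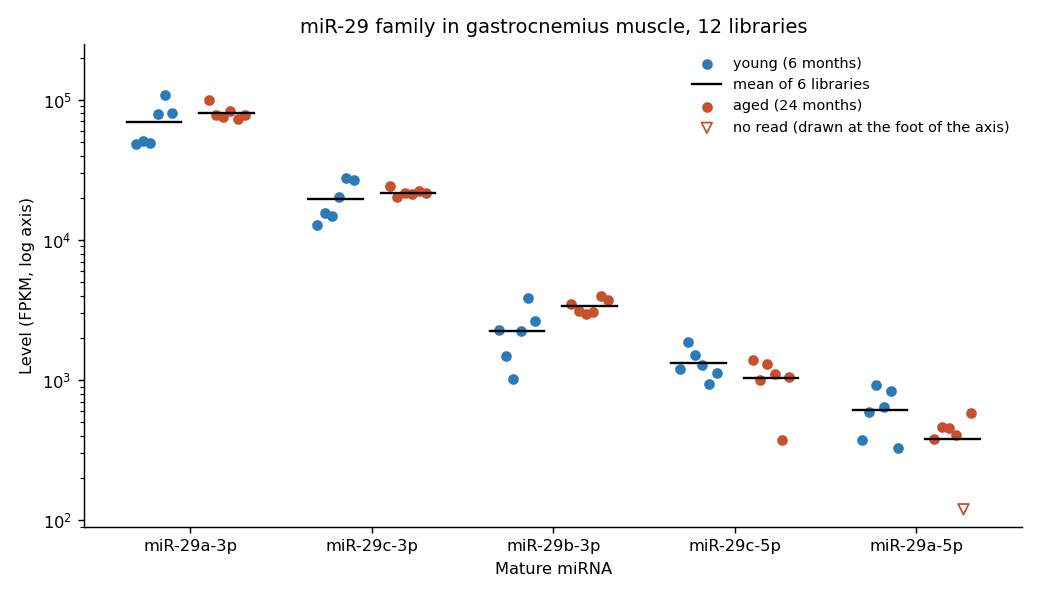
Level of each of the 5 members (FPKM, log axis) in 6 young and 6 aged libraries, 1 point per library, with a bar at the mean of the group. miR-29a-3p and miR-29c-3p stand far above the passengers, miR-29b-3p overlaps miR-29c-5p, the aged libraries lie closer together than the young ones for the 3 guides, and aged replicate 5, the triangle, had no read of miR-29a-5p.

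Depth differed widely between libraries. The steps between low values gave the worth of 1 read, and from it an estimated 198254 to 6241218 miRNA reads in young and 123039 to 7513515 in aged libraries, so that 1 read of a 22-base miRNA stood for between 5.86 and 377 FPKM. Depth went with age, since 5 of 6 young libraries had at most 550003 reads and 5 of 6 aged libraries had at least 1244481. With depth as a covariate the log2 change of miR-29b-3p with age, described below, was 0.68 (limma adjusted p = 0.193). Of 3215 low values, 99.5% came within 0.15 of a whole read. Muscle miRNAs such as miR-133a-3p, miR-486-5p and miR-1a-3p were abundant in both groups, and the liver miRNA miR-122-5p had 0 reads in young and 2 in aged muscle.

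The guide strands were all higher on average in aged muscle, with the largest difference for miR-29b-3p, but none of the 5 members passed the adjusted test. In young muscle miR-29b-3p ranged from 1017 FPKM (replicate 3) through a median of 2261 to 3863 FPKM (replicate 5), and in aged muscle from 2988 through 3307 to 3959 FPKM. Young replicate 5 lay above 5 of the 6 aged libraries. The other 5 young libraries, of which the highest was at 2639 FPKM, lay below all 6 aged libraries. The means were 2255 ± 985 FPKM (SD, n = 6) in young and 3394 ± 401 FPKM (SD, n = 6) in aged muscle. On the scale of log2(FPKM + 48.2) the difference was 0.69 ± 0.24 (SE; 95% interval 0.19 to 1.19), or 1.61-fold, with an unadjusted limma p of 0.00886 and an adjusted p of 0.164. Its p ranked 26 and its change 38 from the top among 482 miRNAs. Without young replicate 5, the highest of the young libraries, the difference was 0.86 with an adjusted limma p of 0.0425, which made it the only call for any member under any alternative tried.

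miR-29a-3p, the most abundant member, ranged in young muscle from 48309 FPKM through a median of 65318 to 107950 FPKM and in aged muscle from 73223 through 77667 to 100025 FPKM. Young replicates 1, 2 and 3 lay below every aged library, young replicates 4 and 6 within their range and young replicate 5 above it. The mean went from 69391 ± 24036 to 81136 ± 9810 FPKM (SD, n = 6 each), a log2 difference of 0.29 ± 0.16 (SE; 95% interval -0.05 to 0.62; limma adjusted p = 0.461).

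miR-29c-3p, the guide that is 1 base away from miR-29a-3p, ranged in young muscle from 12766 FPKM through a median of 17960 to 27746 FPKM and in aged muscle from 20171 through 21544 to 24154 FPKM. The same 3 young libraries were again below all aged ones, while young replicates 5 and 6 were above them. Its means were 19636 ± 6358 and 21802 ± 1335 FPKM (SD, n = 6 each), with a log2 difference of 0.21 ± 0.16 (SE; 95% interval -0.12 to 0.54; limma adjusted p = 0.613). That difference was 0.10 without young replicate 1 and 0.32 without young replicate 5.

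Of the 5 members, then, 0 were called at an adjusted limma p under 0.05, against 2.9% of all tested miRNAs, and 1, miR-29b-3p, had an unadjusted p under 0.05, against 12.9%. By the study's first threshold, an unadjusted p under 0.05 with a change of over 1.5-fold, applied here to the limma fit, 1 of 5 was called, higher in aged muscle, against 9.75% of all tested miRNAs in either direction and 4.15% higher. The study then asked for over 2-fold of miRNAs higher in aged muscle. In the limma fit miR-29b-3p, at 1.61-fold, did not reach this, while 2.7% of all tested miRNAs did. The study itself listed miR-29b-3p as higher in aged muscle, with a larger change than the limma fit gave. The reason for that difference was not tested. The groups overlapped for all 5 members, whereas 2.7% of all tested miRNAs had groups that did not overlap, 0.415% with the aged group above. The median log2 change over the 482 miRNAs was 0.07, and 55.4% of them were higher in aged muscle. For each of the 3 guides, 6 of 6 aged libraries were above the young median. The share of all tested miRNAs with that pattern is not given here. Because miR-29a-3p and miR-29c-3p moved together across libraries, as described below, the 3 guides are not 3 separate observations.

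**Figure D2:**
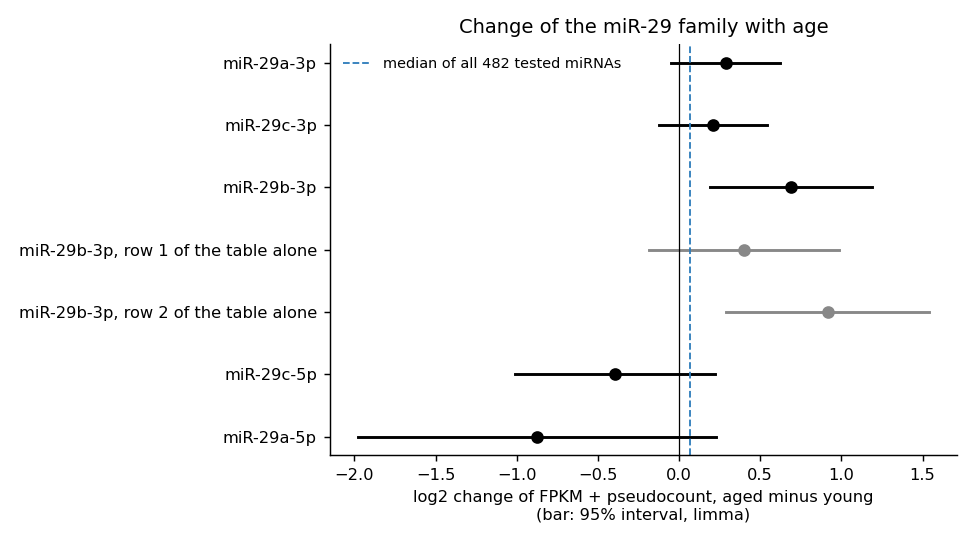
Change of each member with age (log2 of FPKM + pseudocount, aged minus young, limma) with its 95% interval, and in grey the same for each table row of miR-29b-3p alone. The interval of miR-29b-3p, 0.19 to 1.19, lies above 0, those of the other 4 members include it, and the dashed line marks the median of all tested miRNAs, 0.07.

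Whether the guides changed by unequal amounts was tested directly, by fitting each miRNA relative to miR-29a-3p. miR-29b-3p gained 0.40 ± 0.22 on the log2 scale over miR-29a-3p (SE; 95% interval -0.06 to 0.87; limma adjusted p = 0.426), and miR-29c-3p differed from it by -0.08 ± 0.14 (SE; 95% interval -0.37 to 0.22; limma adjusted p = 0.877). Neither difference passed the test, which 4.16% of 481 miRNAs did. At an unadjusted p under 0.05 the fit counted 1 of the other 4 members, miR-29a-5p (-1.16, limma adjusted p = 0.305), against 14.8% of the 481. This is the same quantity as the ratio of the 5p to the 3p arm of miR-29a, tested below. The unadjusted limma p was 0.0451 here and 0.0685 in the fit over hairpins. Without aged replicate 5, which had no read of miR-29a-5p, the difference was -0.63, and with depth as a covariate it was -1.37. Within the sum of the 3 guides, miR-29b-3p took 2.45% ± 0.68 (SD, n = 6) in young muscle, between 1.56% and 3.59%, and 3.21% ± 0.48 (SD, n = 6) in aged muscle, between 2.75% and 3.98%. The share of miR-29a-3p was 75.9% ± 1.7 in young and 76.2% ± 1.7 in aged muscle (SD, n = 6 each). The ratio of miR-29a-3p to miR-29c-3p stayed between 3.01 and 3.92 in young and between 3.29 and 4.14 in aged libraries.

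miR-29b-3p took 2 rows of the table with the same name, which were summed above. Its 2 genes give 1 sequence, and the reads were split almost evenly, 749 on the first row and 730 on the second, so that the first held 50.6% of them (exact 95% interval 48.1% to 53.2%). The interval of every single library also held 50%. Taken alone, in a fit with every genomic copy as its own row, the first row gave a log2 change of 0.40 (95% interval -0.19 to 0.99; limma adjusted p = 0.587). The second row alone gave 0.92 (95% interval 0.29 to 1.54; limma adjusted p = 0.119). The table does not say which row stands for which gene, and with identical sequences the rows are no measure of Mir29b-1 against Mir29b-2. miR-29b-3p was also thinly read in places, with 7, 11 and 16 reads in young replicates 3, 4 and 2 and 11 reads in aged replicate 5.

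The 3 guides varied more among young than among aged libraries. The highest young library was 2.23 times the lowest for miR-29a-3p, 2.17 times for miR-29c-3p and 3.80 times for miR-29b-3p. Among aged libraries the same ratios were 1.37, 1.20 and 1.32. The SD on the log2 scale was 0.48 in young and 0.16 in aged muscle for miR-29a-3p, 0.46 and 0.087 for miR-29c-3p, and 0.65 and 0.17 for miR-29b-3p. For the 211 miRNAs with a mean of at least 482 FPKM the median SD was 0.347 in young and 0.274 in aged muscle. Most young libraries were shallower than most aged ones, and miR-29b-3p had 7, 11 and 16 reads in young replicates 3, 4 and 2. The difference in spread was not tested, nor was the part of depth in it.

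**Figure D3:**
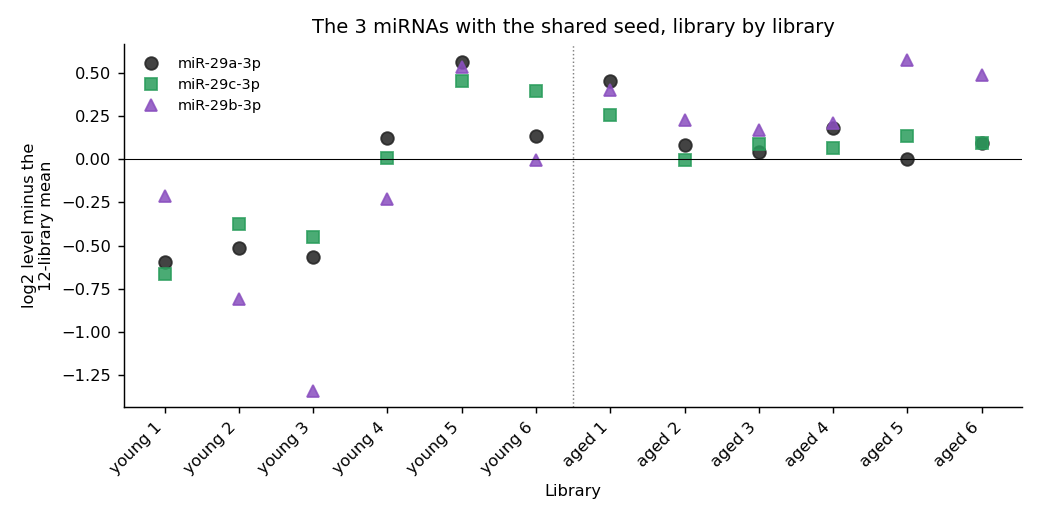
Level of the 3 guides in each library as the log2 difference from that guide's mean over 12 libraries. miR-29a-3p and miR-29c-3p move together from library to library, low in young replicates 1, 2 and 3 and high in young replicate 5 and aged replicate 1, while miR-29b-3p departs from them most in young replicate 3.

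Across libraries miR-29a-3p and miR-29c-3p, which come from different chromosomes, followed each other more closely than either followed any other miRNA. The SD of their log2 difference over 12 libraries was 0.139, the smallest of 481 for both. The next for miR-29a-3p were miR-22-3p at 0.214, miR-15a-5p at 0.220 and miR-21a-5p at 0.226. For miR-29c-3p they were miR-26a-5p at 0.216, miR-16-5p at 0.219 and miR-196a-5p at 0.226. These values describe 12 libraries, and how reads that fit both near-identical guides were assigned is not stated in the sources used here. miR-29b-3p was closest to miR-106b-5p at 0.312 and miR-199a-5p at 0.333, then to miR-29a-3p at 0.369, which ranked 3, and miR-8111 at 0.378. The log2 change of miR-106b-5p with age was 0.40 (limma adjusted p = 0.679) and that of miR-199a-5p 0.12 (limma adjusted p = 0.866).

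Cell type markers differed in how they ran across the young libraries. The summed level of the 6 miRNAs listed for fibroblasts (the miR-199a, miR-199b and miR-214 arms) was 50596, 47727 and 53718 FPKM in young replicates 1, 2 and 3, and 63057, 70919 and 60075 FPKM in replicates 4, 5 and 6. The 4 listed for white blood cells gave 8449 to 12919 FPKM in the first 3 and 13748 to 19468 FPKM in the others. The 2 listed for endothelium gave 307743 to 363350 and 370242 to 455685 FPKM. In each of these 3 lists young replicates 1, 2 and 3 were the lowest of the young libraries. They had been singled out by their low miR-29a-3p and miR-29c-3p, so the comparison is no test of a link with those guides. Most of the endothelial sum was miR-126a-5p, and most of the fibroblast sum was miR-199a-3p and miR-199b-3p. The split was not particular to cell type lists. The list of matrix-restraining miRNAs described below gave 9204601 to 10256429 against 11129118 to 13563247 FPKM, whereas the fibrosis-promoting list overlapped. The 6 muscle fibre miRNAs did not separate the 2 sets of young libraries, with 7100984 to 8087199 against 7895804 to 9255498 FPKM. Most of that fibre sum was miR-133a-3p and miR-486-5p. The 3 listed for smooth muscle and pericytes tended the other way with overlap. They gave 5053736 to 5880078 FPKM in replicates 1, 2 and 3 and 3908735 to 5447597 FPKM in the others. Nearly all of this smooth muscle sum was miR-143-3p. The 3 listed for red blood cells also tended the other way with overlap, at 6408 to 10486 and 5828 to 6907 FPKM. Among aged libraries the fibroblast sum ran from 45865 FPKM in replicate 3 to 80457 FPKM in replicate 6, and miR-29a-3p was at 75281 and 77936 FPKM in those libraries. Every marker of the 6 cell type lists had reads in both groups, and the part of other cells in the miR-29 levels was not tested. Between the groups, the fibroblast sum was 47727 to 70919 FPKM in young and 45865 to 80457 FPKM in aged muscle, and 0 of its 6 miRNAs were called by limma, with 0 at an unadjusted p under 0.05 and a median log2 change of 0.02. The white blood cell sum was 8449 to 19468 FPKM in young and 11136 to 24904 FPKM in aged muscle, the endothelial sum 307743 to 455685 and 336491 to 382329 FPKM, and the fibre sum 7100984 to 9255498 and 6775249 to 8404268 FPKM. The smooth muscle sum was 3908735 to 5880078 and 4812906 to 6120679 FPKM, and the red blood cell sum 5828 to 10486 and 3022 to 10507 FPKM. The median log2 change with age of the white blood cell list was 0.36 (3 of 4 higher). This was above the changes of miR-29a-3p and miR-29c-3p and below that of miR-29b-3p. The median was 0.14 for muscle fibre, 0.17 for smooth muscle, 0.0075 for endothelium and -0.34 for red blood cells. Only miR-206-3p of the fibre list was called, and at an unadjusted p under 0.05 there were also miR-145a-5p of smooth muscle (-0.43, limma adjusted p = 0.0975) and miR-144-3p of red blood cells (-0.77, limma adjusted p = 0.189), both lower.

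The passenger strands were lower on average in aged muscle, in the opposite direction to the guides, and neither passed the test. miR-29a-5p ranged in young muscle from 326 FPKM through a median of 616 to 917 FPKM, and in aged muscle from 0 through 433 to 584 FPKM. No aged library was above the young median. Its means were 613 ± 237 and 382 ± 200 FPKM (SD, n = 6 each), a log2 difference of -0.88 ± 0.53 (SE; 95% interval -1.98 to 0.23; limma adjusted p = 0.494). The library at 0 was aged replicate 5, the shallowest of the 12, where a count of 0 allows up to 1132 FPKM (the worth of 3 reads), more than any other library held. Without that library the difference was -0.31 (limma adjusted p = 0.720). By limma voom on the recovered reads, which gives thinly read libraries less weight, it was -0.13. With depth as a covariate it was larger, at -1.11 (limma adjusted p = 0.369).

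miR-29c-5p ranged in young muscle from 936 FPKM through a median of 1240 to 1859 FPKM, and in aged muscle from 377 through 1083 to 1389 FPKM. Of the aged libraries 2 of 6 were above the young median, and the lowest value, again of aged replicate 5, rested on 1 read. The means were 1320 ± 326 and 1040 ± 359 FPKM (SD, n = 6 each), a log2 difference of -0.39 ± 0.30 (SE; 95% interval -1.01 to 0.22; limma adjusted p = 0.613). Without aged replicate 5 it was -0.14, and with depth as a covariate -0.54 (limma adjusted p = 0.462). The 5p products of the miR-29b hairpins were barely read. miR-29b-1-5p had 6 reads in all young and 16 in all aged libraries, and miR-29b-2-5p had 18 and 22.

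The balance of the arms within a hairpin was tested as the log2 ratio of 5p to 3p. For miR-29a it differed with age by -1.16 ± 0.58 (SE; 95% interval -2.43 to 0.10; limma adjusted p = 0.425), and for miR-29c by -0.61 ± 0.39 (SE; 95% interval -1.45 to 0.24; limma adjusted p = 0.510). Neither was called, against 0.769% of 130 hairpins, and neither had an unadjusted p under 0.05, against 13.1%. Without aged replicate 5 the differences were -0.63 for miR-29a and -0.35 for miR-29c. In reads, the 5p arm took 0.407% to 1.82% of the miR-29a hairpin in young libraries (mean 0.949% ± 0.486, SD, n = 6) and 0% to 0.743% in aged libraries (mean 0.468% ± 0.260, SD, n = 6). The 0 of aged replicate 5 was among 194 reads, which allows a share of up to 1.55% if 3 reads are taken as the limit and up to 1.88% by the exact 95% interval. Summing reads turned the direction round, with 75 of 14489 reads or 0.518% in young (exact 95% interval 0.407% to 0.648%) and 134 of 23706 reads or 0.565% in aged muscle (0.474% to 0.669%). In these sums the deepest library of each group carries most of the reads.

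The miR-29c hairpin kept more of its 5p arm than miR-29a in every library. Its share was 3.26% to 10.6% in young libraries (mean 6.96% ± 2.99, SD, n = 6) and 1.67% to 5.76% in aged libraries (mean 4.54% ± 1.47, SD, n = 6). The highest values, 8.56%, 10.6% and 9.35%, were those of young replicates 1, 2 and 3, the libraries in which miR-29a-3p and miR-29c-3p were low. Their intervals were wide, from 4.97% to 13.5% for replicate 1, on 187 reads. The share has the miR-29c-3p reads in its denominator, so a low miR-29c-3p raises it by construction. The level of miR-29c-5p itself was 1193, 1859 and 1520 FPKM in young replicates 1, 2 and 3. In young replicates 4, 5 and 6 it was 1287, 936 and 1128 FPKM. Summed over libraries the share was 4.59% of 4835 reads in young (exact 95% interval 4.02% to 5.22%) and 5.41% of 6790 reads in aged muscle (4.88% to 5.97%), again the reverse of the order of the means. These intervals cover counting error only.

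**Figure D4:**
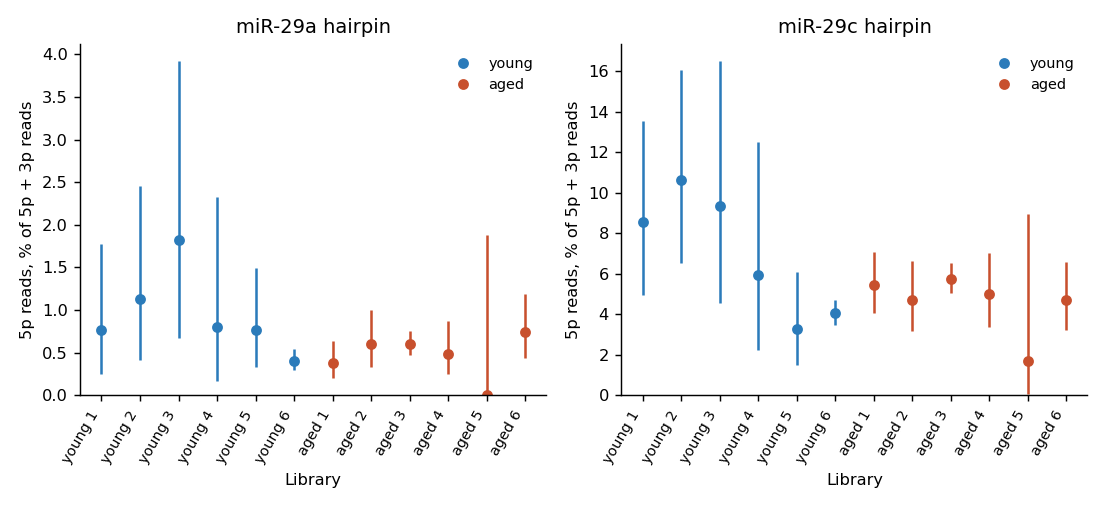
Share of the 5p arm among the reads of the miR-29a and the miR-29c hairpin (percent) in each library, with exact 95% binomial intervals for counting error. The young libraries spread from 3.26% to 10.6% for miR-29c, and aged replicate 5 is the lowest in both panels, with wide intervals.

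Other miRNAs with a known part in matrix control were followed beside the family. Of 9 miRNAs listed as promoting fibrosis, 8 were tested, miR-208a-3p being at 0 in every library. Of these 8, 0 were called by limma, against 2.9% of all tested miRNAs, 2 were higher at an unadjusted p under 0.05, against 5.6% of all, and the median log2 change was 0.12, beside 0.07 for all tested miRNAs. miR-34a-5p, a target of p53, went from 744 ± 351 to 1603 ± 357 FPKM (SD, n = 6 each), a log2 difference of 1.23 ± 0.35 (SE; limma adjusted p = 0.0626), and it passed without young replicate 4 or young replicate 6 (limma adjusted p = 0.0338 and 0.0419). miR-155-5p, an inflammatory miRNA, differed by 0.71 ± 0.32 (SE; limma adjusted p = 0.344) and miR-192-5p, which acts with TGF-beta in the kidney, by 0.21 ± 0.11 (SE; limma adjusted p = 0.398).

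Of 23 miRNAs other than miR-29 listed as restraining matrix genes or TGF-beta signalling, 20 were tested, and 11 of them were higher in aged muscle, with a median log2 change of 0.03. The 1 called, against 0.622% of all tested miRNAs called higher, was miR-206-3p, a muscle miRNA of regenerating and slow fibres, which rose from 812 ± 637 to 1981 ± 480 FPKM (SD, n = 6 each), by 1.54 ± 0.39 on the log2 scale (SE; limma adjusted p = 0.0296). This call was lost in 8 of 12 fits that left out 1 library (young replicate 1, 3 or 5 or any of aged replicates 2 to 6), with limma adjusted p-values up to 0.0833, and the direction was kept in all of them. At an unadjusted p under 0.05 there were also 3 lower, against 7.26% of all, miR-30c-5p (-0.30), miR-30b-5p (-0.28) and miR-101b-3p (-0.24), named here after their values were seen. miR-30c is known to repress Ctgf, a matrix-inducing growth factor. None of these 3 was called after adjustment. The other listed members of their families did not all go the same way. miR-30a-5p, the most abundant of them, was at 0.19 and miR-101a-3p at 0.08, while miR-30d-5p was at -0.01 and miR-30e-5p at -0.22.

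**Figure D5:**
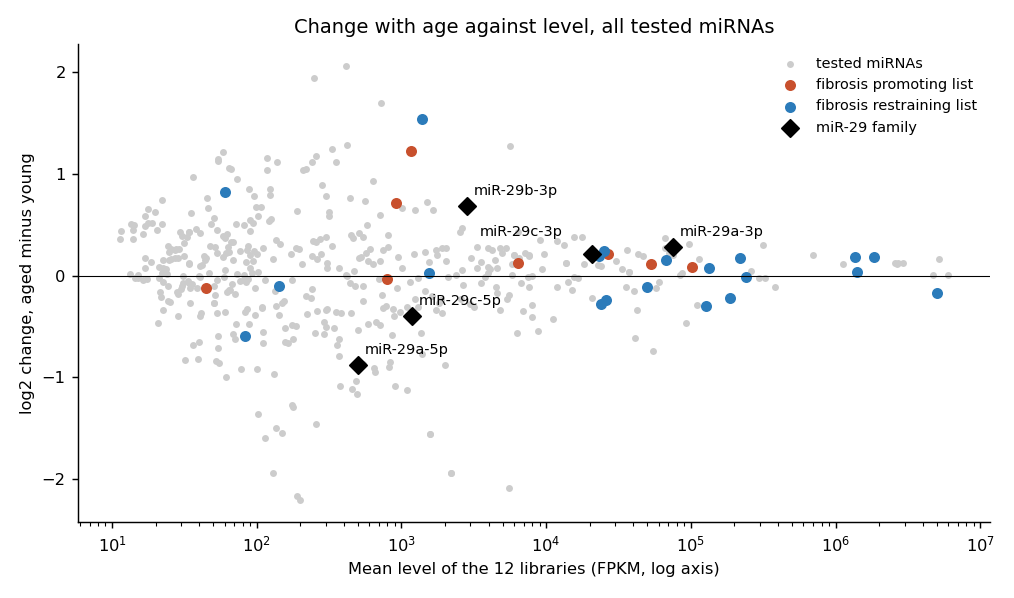
Log2 change with age (aged minus young) against mean level (FPKM, log axis) for the 482 tested miRNAs, with the miR-29 family as black diamonds and the lists of fibrosis promoting and fibrosis restraining miRNAs in colour. miR-29b-3p, at 0.69, stands above the other 4 members, miR-29a-3p and miR-29c-3p lie at 0.29 and 0.21 among abundant miRNAs, and both passengers lie below 0.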

How the data were processed

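Small RNA of 12 gastrocnemius libraries, 6 young and 6 aged, was analysed. Per the study's methods, trimmed reads were mapped to mm10 by BWA with its default settings, and the authors calculated FPKM for miRBase 20 entries and deposited them as log2 values, a miRNA with no read being given as 0. Strand use and the handling of reads that fit several places are not given in the sources used here. The labels and the methods name different sequencers.

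The log2 was undone and genomic copies were summed. log2(FPKM + 48.2), the added value being the median of the smallest values above 0, was fitted for 482 miRNAs above 0 in at least 5 of 12 libraries with limma 3.58.1 (eBayes with trend, R 4.3.3), aged against young, two-sided, with Benjamini-Hochberg adjustment at 0.05 over all miRNAs. Arm balance and change relative to miR-29a-3p were fitted likewise. The study used an unadjusted test per miRNA with a 1.5-fold threshold, raised to 2-fold for miRNAs higher in aged muscle. The fit was also run on simulated data, with larger changes than those of the guides and a smaller added spread than theirs in young muscle. That run therefore does not show how well changes of their size are found. Reads per library (123039 to 7513515) were recovered from the steps of low values, assuming 22 bases where no RefSeq length was matched (1603 of 1900 matched). Low depth limits the rarer members, and intervals on reads are exact binomial at 95% and cover counting error only. Coordinates came from GENCODE M21, and sequences from RefSeq. Python 3.11.15, pandas 2.3.3, NumPy 2.4.6 and SciPy 1.17.1 were used.

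Groups and replicate numbers came from the labels. Named beside the members were the miR-29b 5p products, the 3 miRNAs most like each guide by the SD of the log2 difference, and from each list the called miRNAs or, with none called, the 3 of smallest p at most. Members and lists were chosen with earlier results of these data known. Alternatives changed the pseudocount, filter, scaling, variance model, test, replicate block, depth covariate, handling of copies and the libraries included.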

Additional observations from a re-analysis of the deposited data

Results flagged for a closer look

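In 24 groups of 6 libraries, 4 held a library far from the other 5 by Dixon's criterion, where chance gives about 1.2 if the groups are separate. They are not, since levels, shares and sums reuse the same reads, so the excess was not tested. Aged replicate 5 stood apart in 3 of the 4. For miR-29a-5p it was at 5.59 on the scale of log2(FPKM + 48.2), the value of no read, where the others were between 8.74 and 9.30. For miR-29c-5p it was at 8.73, from 1 read, with the others between 10.03 and 10.5. Its share of 5p reads in the miR-29c hairpin was 1.67%, with the others between 4.69% and 5.76%. This library had the fewest reads of the 12, 123039, and the part of depth in these values was not tested.

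Aged replicate 1 had the highest sum of the 3 guides in aged muscle, 127686 FPKM, with the others between 99408 and 107193 FPKM.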

How the results depend on the processing

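For the 5 members, their arm balances and their changes relative to miR-29a-3p, 235 of 236 alternative values kept their direction and their side of the threshold and 0 reversed. The arm balance of miR-29a and the change of miR-29a-5p relative to miR-29a-3p are the same quantity, and both enter this count. The exception among the 236 was miR-29b-3p, at 0.86 without young replicate 5 (limma adjusted p = 0.0425), the cause of which was not tested. Its adjusted p otherwise ran up to 0.587, and its unadjusted p was under 0.05 in 25 of 26 alternatives, the exception being the first table row alone, chosen after seeing the data. An exact permutation test gave p = 0.0195 (adjusted p = 0.204).

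Leaving out 1 library gave log2 changes of 0.20 to 0.43 for miR-29a-3p, 0.49 to 0.86 for miR-29b-3p, 0.10 to 0.32 for miR-29c-3p, -1.05 to -0.31 for miR-29a-5p and -0.49 to -0.14 for miR-29c-5p, arm balances of -1.36 to -0.63 (miR-29a) and -0.81 to -0.35 (miR-29c), and changes relative to miR-29a-3p of 0.29 to 0.52 (miR-29b-3p), -0.11 to -0.03 (miR-29c-3p), -1.36 to -0.63 (miR-29a-5p) and -0.91 to -0.46 (miR-29c-5p). The change of miR-29a-5p was -1.81 with a pseudocount of 1 FPKM and -0.35 with 10 times the main one.

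Outside the family, miR-206-3p was called in 12 of 25 alternatives, with a log2 change of 1.04 to 1.86 (adjusted p up to 0.198). Over all miRNAs, 14 were called, against 6 with a pseudocount of 1 FPKM, 7 without a filter, 8 with a filter on the mean, 8 with depth as a covariate, 6 to 15 leaving out 1 library, and 0 by exact permutation (66 at an unadjusted p under 0.05). The unadjusted 1.5-fold count was 47, against 16 with 10 times the pseudocount, 22 with a filter on the mean and 40 to 50 leaving out 1 library. The arm balance called 1 hairpin, against 0 with a pseudocount of 1 FPKM (15 unadjusted), 3 with 10 times it, 0 by limma without trend (17 unadjusted), and 0 to 4 leaving out 1 library. Relative to miR-29a-3p 20 were called, against 12 with 10 times the pseudocount, 11 without a filter, 11 without trend, 11 with depth as a covariate and 8 to 35 leaving out 1 library.

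Replicate numbers are shared by the groups but do not pair the libraries: deviations of same-numbered libraries correlated at -0.094 to 0.095, and 0 of 6 correlated best with its own number. With the replicate number as a block, miR-29b-3p had an adjusted p of 0.112 and miR-34a-5p of 0.0394, 14 miRNAs and 2 hairpins were called, and 14 were called relative to miR-29a-3p. Median-of-ratios scaling moved the median of all miRNAs from 0.07 to 0.04.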
